A study of Rattus norvegicus with 12 samples.

Results

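Gene expression was compared between rat cells labelled as fibrotic bone marrow mesenchymal stem cells and untreated bone marrow mesenchymal stem cells (BMSCs). The libraries were chosen by their labels: 3 labelled BF-C against 3 labelled BMSC-C, together 6 of the 12 libraries of the series. All 6 carry the tissue bone marrow, the genotype WT, the growth in low-glucose medium with chondrogenic induced medium and the treatment Control. They differ in the label of cell type, which is plain BMSCs for BMSC-C and fibrotic BMSCs for BF-C. The series' design text lists control BMSCs, a fibrotic BMSC group that received TGF-β1 and CTGF, and induced fibrotic chondrocytes (iFCs) without or with docetaxel, so BF-C is taken here as the untreated iFCs. How the BF-C cells were induced, the rat strain and the age are not given in the sources used here. The other groups were BMSC-CT, BMSCs given CTGF for 1 week and then TGF-β1, and BF-D, the fibrotic cells given the microtubule-stabilizing drug docetaxel. BMSC-C and BF-C were deposited in separate tables, so culture, any batch and the label differ together and cannot be told apart. The results describe how these profiles differ. The labels do not say whether the replicates were separate cultures or animals, so each p-value measures only the spread between these libraries.

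BMSCs are adherent stromal cells of the marrow that can form cartilage, bone and fat, and primary cultures of them often carry macrophages along. Fibrocartilage is a tissue in which a type I collagen network takes the place of the type II collagen and aggrecan of hyaline cartilage. Fibrotic cells of many tissues share high output of fibrillar collagens, collagen crosslinking enzymes and contractile proteins such as smooth muscle actin, with TGF-β as their best known inducer.

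The values are reads per gene, scaled together over the 6 libraries and called normalized reads below. Differences are BF-C minus BMSC-C on the scale of log2(normalized reads + 1), which understates the change of low genes, and a gene is called higher or lower where limma gave an adjusted p under 0.05. The 6 libraries held between 15751106 and 19870047 reads in their tables. Of 16090 genes tested, 7980 differed (49.6%): 3925 were higher in BF-C (24.4%) and 4055 lower (25.2%). Beyond 2-fold, 1706 genes differed (10.6%), 764 of them higher in BF-C (4.75%) and 942 lower (5.85%). The levels of 9545 genes (59.3%) did not overlap between the groups. Differences of 16-fold or more were mostly falls, with 290 genes called at least 16-fold lower and 85 at least 16-fold higher. The median difference over all tested genes was 0.02 on the log2 scale, and each list median below stands beside that value. Libraries of 1 group correlated more closely with each other (Pearson's r of log2 values across genes between 0.974 and 0.982) than with libraries of the other group (between 0.886 and 0.900). Replicates lay closer together in BF-C, where the median SD of log2 values was 0.117, than in BMSC-C, where it was 0.247. Deviations of the BMSC-C libraries also followed gene length (Spearman's rho across genes of 0.224, -0.0709 and -0.182) more than those of BF-C did (0.0349, -0.00618 and -0.0404). The difference between the groups followed gene length as well, with longer genes tending to be higher in BF-C (rho of 0.146). With the length trend removed, 7840 genes were called, 4022 higher and 3818 lower. In a fit that took its spread and its size factors from all 12 libraries, 3792 genes were called. Genes named below that lost their call there were Adamts5, Fbn2, Nid1, P4hb, P4ha1, Plod1, Plod2, Thbs1, Pappa, Mki67, Rrm2, Pcna, Timp1, Timp2, Tuba1b, Rplp0, Rpsa, Rpl7a, Prrx1, Shox2, Mt-nd3, Mt-nd4, Bgn, Col23a1, Sox9, Eno2, Kdr, Vegfb, Mcam, Cd80, Zyx, Cxcl1, Lcn2 and Ptgs2, besides Lamc1 and Igf2r. Genes named below outside the rule given with the processing were chosen after their values were seen: Adgre1, Aldh1l2, Asns, Aurka, Axin2, Ccnb1, Cd14, Cd44, Cd80, Chac1, Col13a1, Col1a2, Col23a1, Col27a1, Col9a1, Comp, Csf1, Cyp51, Egr1, Egr2, Epyc, Flt4, Hapln1, Hk1, Hoxb3, Hoxd11, Hoxd13, Id1, Id2, Il1rl1, Kdr, Matn3, Mcam, Msmo1, Nov, P4ha1, Pfkfb4, Pgf, Plod1, Plod2, Pmvk, Ptprc, Rpl8, Scx, Shox2, Slc2a1, Smad2, Smad3, Tagln, Tagln2, Tbx18, Tbx4, Tbx5, Vegfa, Vegfb, Vegfc and Zyx.

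**Figure D1:**
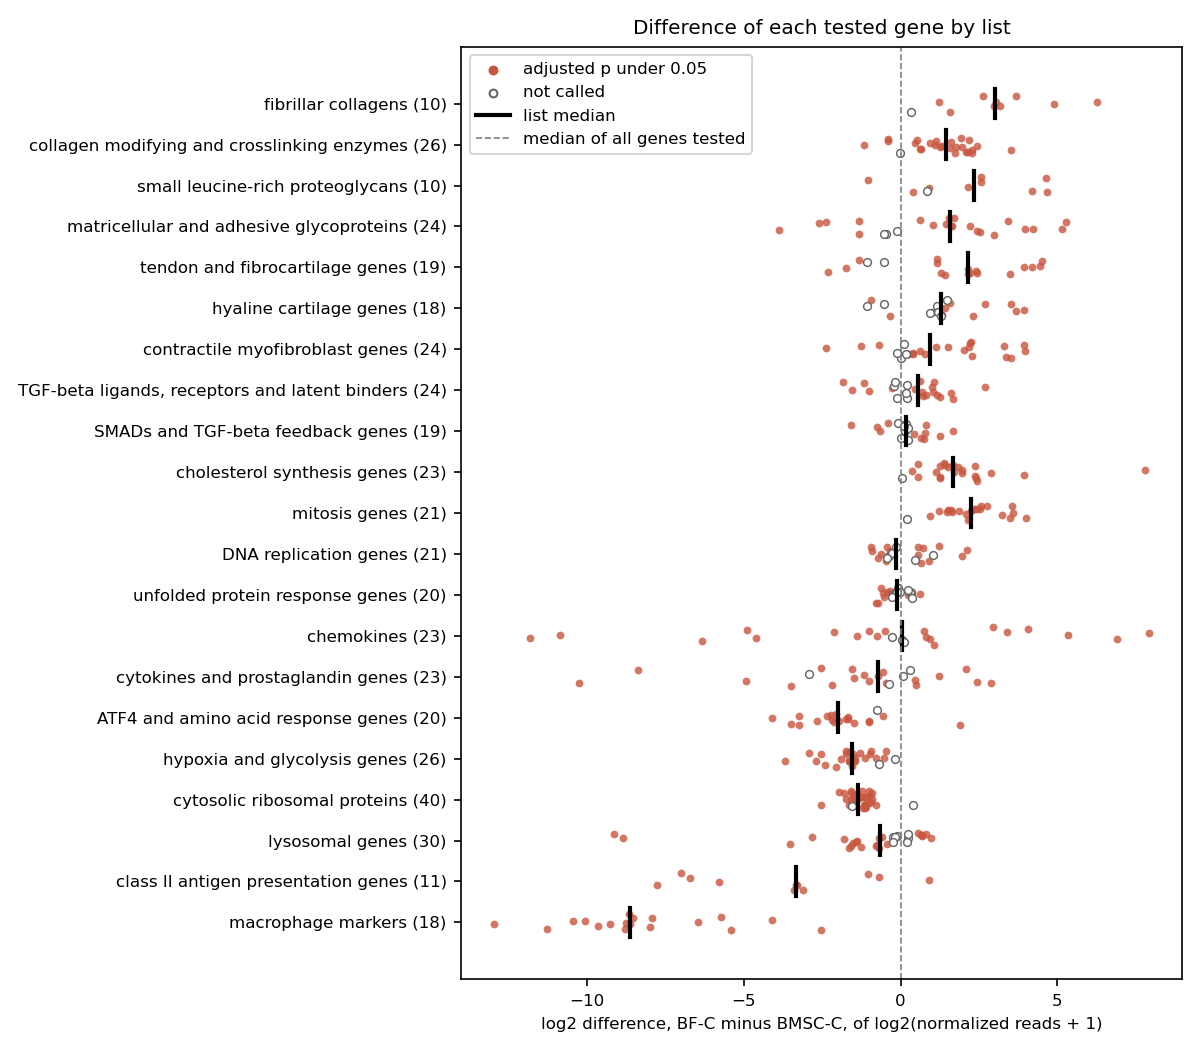
The log2 difference (BF-C minus BMSC-C, horizontal axis, no unit) of each tested gene is shown for 21 lists, with the number of tested genes in brackets. Filled points passed an adjusted p of 0.05 in limma, open points did not, black bars are list medians and the dashed line is the median of all genes tested, at 0.02. Fibrillar collagens lie furthest to the right, with a median of 3.01, and macrophage markers furthest to the left, with a median of -8.65.

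The label of the BMSC-C cells was checked first. Thy1, the CD90 antigen of mesenchymal stem cells, stood at 10981, 10649 and 11965 normalized reads in BMSC-C and at 24489, 23718 and 24423 in BF-C. Of 12 mesenchymal stem cell markers tested, 5 were higher in BF-C, 4 were lower and 3 were not called. Nt5e (CD73), with 1214, 1123 and 1368 against 245, 280 and 265 normalized reads, was among the lower ones, as were Alcam, Mcam and Cd44. All 18 macrophage markers tested were lower in BF-C. They held 1.64%, 1.62% and 1.87% of the reads of the BMSC-C libraries and 0.0379%, 0.0386% and 0.0380% of those of BF-C, a ratio of 44.8 with no overlap (exact two-sided permutation test, p = 0.1, the smallest that 3 against 3 allows). In bulk RNA, fewer cells of a type and less RNA per cell cannot be told apart. The BMSC-C libraries thus carried RNA of macrophage genes that BF-C nearly lacked, and this share moves with every difference below; its part in them was not tested. With size factors computed without macrophage, class II, osteoclast and lysosomal genes, 7981 genes were called.

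The name chondrocyte was checked against hyaline cartilage genes. Col2a1, the type II collagen of hyaline cartilage, was listed in the BF table only, with 5, 2 and 2 reads in BF-C, and Acan, the core protein of aggrecan, in the BMSC table only, with 4, 1 and 6 reads in BMSC-C, so neither could be compared. Both counts are close to 0 at this depth. Sox9, the factor that directs cartilage formation, stood at 32.8, 25.3 and 22.6 normalized reads in BMSC-C and at 43.1, 47.8 and 83.7 in BF-C; the groups did not overlap, and the log2 difference was 1.04 ± 0.31 (log2, SE; adjusted p = 0.020). That call was lost without BF-C replicate 3 (adjusted p = 0.082) and without BMSC-C replicate 2 (0.061). Of 18 hyaline cartilage genes tested, 9 were higher, 2 lower and 7 not called (median 1.31, and 0.82 with a pseudocount of 5; 1 was lower without BF-C replicate 2 or BF-C replicate 3). Col9a2, a chain on the surface of cartilage fibrils, stood at 54.4, 52.5 and 45.2 against 518, 606 and 664 normalized reads, a ratio of means of 11.8. Frzb, a secreted Wnt antagonist first found in cartilage, stood at 191, 119 and 143 against 999, 925 and 987. Prg4, the lubricin of joint surfaces, was at 2640, 1592 and 2089 against 5400, 5420 and 5603. Some members of the list were near 0 in both groups: Hapln1 (link protein) averaged 0.313 against 2.05 normalized reads, Matn3 1.90 against 5.98 and Col9a1 1.59 against 4.40, none of them called (Matn3 was called higher without BMSC-C replicate 1). The data thus show almost no type II collagen RNA under the name chondrocyte, and the cells are called by their label BF-C below.

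**Figure D2:**
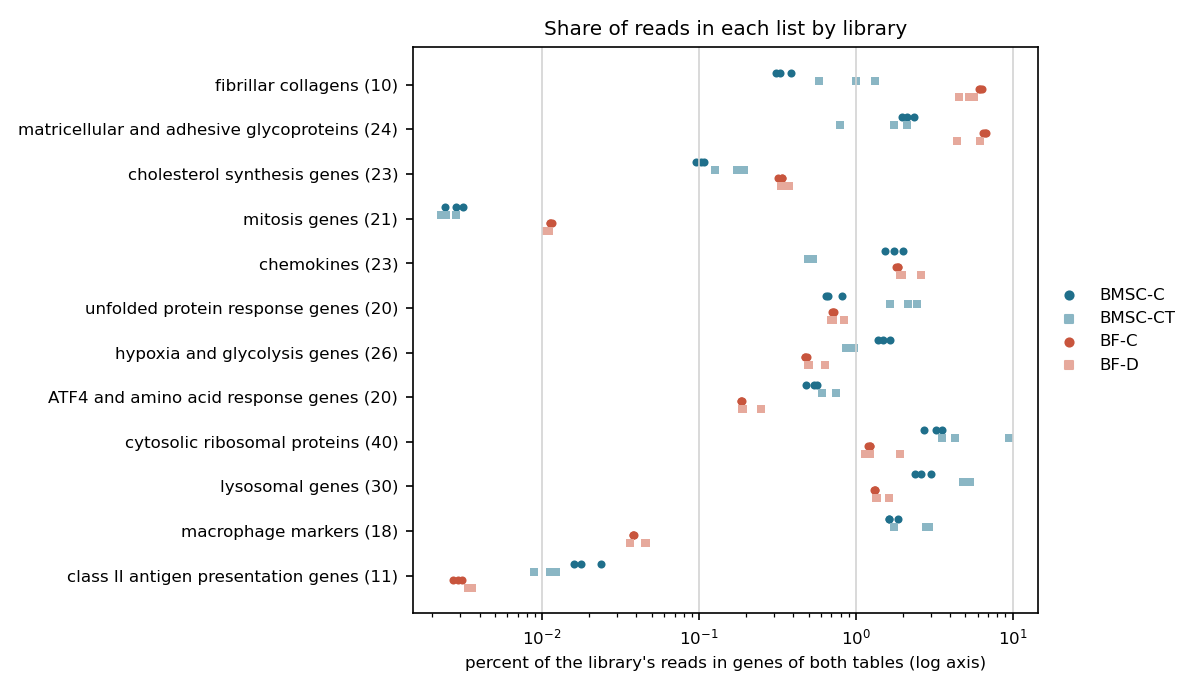
Each point gives the percent of 1 library's reads (in genes of both tables, log axis) that fell in a list, for 12 lists and the 12 libraries; circles are BMSC-C and BF-C, squares BMSC-CT and BF-D. Fibrillar collagens took between 0.309% and 0.384% of the reads in BMSC-C and between 6.09% and 6.35% in BF-C, while macrophage markers took between 1.62% and 1.87% in BMSC-C and at most 0.0386% in BF-C.

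Fibrillar collagens, which form the tensile fibres of connective tissue, had the highest median difference of the matrix lists. Of 10 chains tested, 9 were higher in BF-C and none lower (median 3.01), and 7 were higher beyond 2-fold. Col1a1, which encodes the more abundant type I collagen chain, stood at 24508, 30422 and 29617 normalized reads in BMSC-C and at 830503, 850737 and 826554 in BF-C. The groups were far apart, with a ratio of means of 29.7 and a difference of 4.90 ± 0.14 (log2, SE; adjusted p = 1.08e-08, limma). This gene alone took 4.75% ± 0.0615 (SD, n = 3) of the BF-C reads against 0.166% in BMSC-C. Col3a1, which mixes with type I collagen in young and healing tissue, stood at 1565, 2292 and 1332 against 130069, 128951 and 130167 normalized reads, a ratio of 75.0 (6.27 ± 0.17, adjusted p = 8.91e-09). The groups of Col3a1 were further apart than those of any other fibrillar chain on the log2 scale. Col1a2, the partner chain of Col1a1, varied more: 3902, 8796 and 8683 against 52932, 69184 and 41093 normalized reads. The fibril-nucleating Col5a1 stood at 2234, 2763 and 2770 against 21061, 21159 and 21142, and Col11a1 at 783, 771 and 518 against 8451, 8975 and 8807. Col27a1 alone was not called, with means of 500 and 622 normalized reads (it was called higher without BMSC-C replicate 2, adjusted p = 0.034, and under quantile normalization, 0.047). Together the 10 chains took 0.340% ± 0.0390 (SD, n = 3) of the BMSC-C reads and 6.20% ± 0.134 (SD, n = 3) of the BF-C reads.

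Other collagens followed in part. Of 25 non-fibrillar chains, 17 were higher in BF-C, 2 lower and 6 not called (median 1.28). Col14a1, which sits on the surface of type I fibrils, stood at 143, 173 and 148 against 3515, 3696 and 3348 normalized reads (4.50 ± 0.10, adjusted p = 3.19e-09). The beaded-filament chains Col6a1 and Col6a2 were each about equally higher, with ratios of means of 9.22 and 9.18. Col12a1, another fibril-associated collagen and already abundant in BMSC-C, stood at 82026, 71789 and 64865 against 180758, 177344 and 171930. The 2 lower chains were transmembrane collagens: Col13a1 had means of 51.9 and 1.64 normalized reads, and Col23a1 of 30.4 and 12.2 (Col23a1 lost its call without BF-C replicate 2, adjusted p = 0.056).

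Enzymes that process and crosslink collagen were also mostly higher: 22 of 26 were higher in BF-C, 3 lower and 1 not called (median 1.45). Lox, which oxidizes lysines for crosslinks, stood at 11993, 11170 and 8789 against 57732, 56843 and 58477 normalized reads, with no overlap (2.45 ± 0.12, adjusted p = 3.14e-07). Tll1, a protease that trims procollagen, stood at 349, 305 and 266 against 3524, 3431 and 3533, a ratio of 11.4. Adamts2, which removes the amino end of procollagen, and P3h4, a partner of lysyl hydroxylase, had ratios of 4.89 and 4.87. P4hb, the abundant beta subunit of prolyl hydroxylase, differed less, at 27838, 23626 and 29976 against 36773, 36607 and 37411. The 3 lower enzymes all hydroxylate collagen: P4ha1 (means of 3835 and 1713 normalized reads), Plod1 (7999 and 6036) and Plod2 (9136 and 6954), whose call was lost without any 1 of the BF-C libraries (adjusted p between 0.059 and 0.070) and under quantile normalization (0.11).

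**Figure D3:**
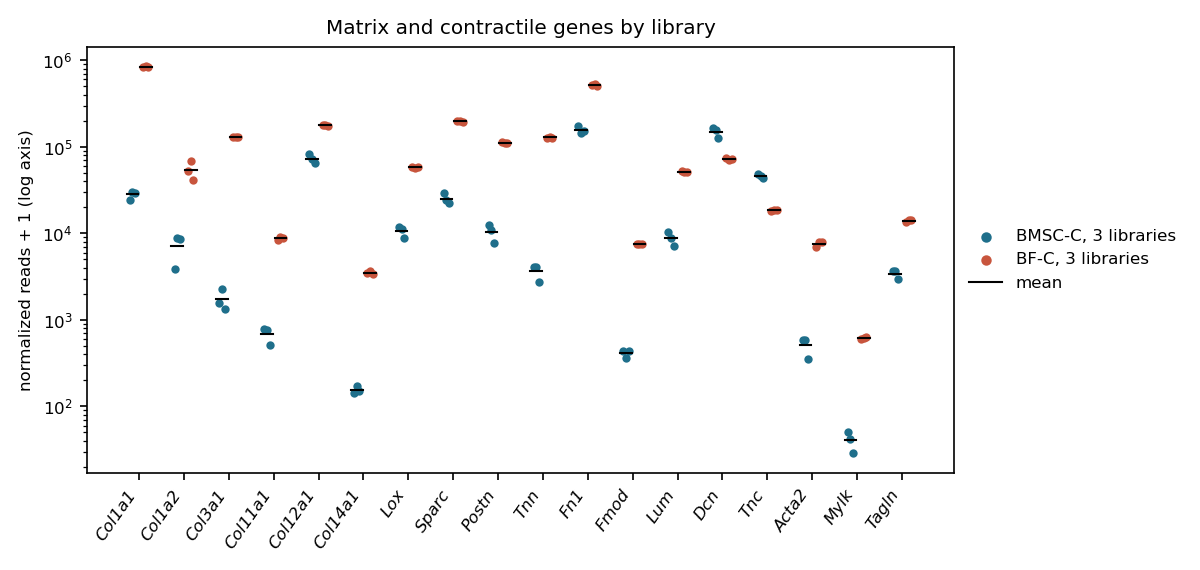
Normalized reads plus 1 (log axis) are shown for 18 matrix and contractile genes in the 3 BMSC-C and 3 BF-C libraries, with a black line at each group's mean. Col1a1 reaches 850737 in BF-C against at most 30422 in BMSC-C, and Dcn and Tnc are the genes with lower points in BF-C.

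Small leucine-rich proteoglycans, which coat collagen fibrils and set their width, split. Of 10 tested, 8 were higher, Dcn was lower and Epyc was not called (median 2.35), yet their summed share of reads was 1.38% ± 0.207 (SD, n = 3) in BMSC-C and 1.34% ± 0.0179 (SD, n = 3) in BF-C (exact permutation p = 0.7). Fmod stood at 435, 363 and 432 against 7482, 7492 and 7577 normalized reads (4.20 ± 0.09, adjusted p = 2.89e-09). Lum stood at 10481, 8770 and 7132 against 52521, 50743 and 50560, and Podnl1 at 70.4, 81.6 and 81.2 against 2003, 1943 and 2095. Dcn (decorin) was the lower member: 164542, 154331 and 124810 against 73588, 70991 and 72328 (-1.02 ± 0.14, adjusted p = 2.39e-04). Bgn, at 87510, 64939 and 76471 against 101428, 99821 and 101518, passed the test (adjusted p = 0.031) but lost the call without BF-C replicate 1, 2 or 3 or BMSC-C replicate 2 (adjusted p between 0.059 and 0.11) and with the replicate block (adjusted p = 0.057), and its difference turned to -0.07 under quantile normalization. The Aspn ID with the larger change had 1 far higher library, with 17.9, 442 and 26.2 normalized reads in BF-C against 0, 3.89 and 2.06 (4.63, adjusted p = 0.0062, and 0.16 with limma-voom). Without BF-C replicate 2 its difference was 3.23 (adjusted p = 0.0084), without BF-C replicate 1 5.47, without BF-C replicate 3 5.23 and without BMSC-C replicate 1 3.97; Aspn stands under a second ID, so its reads are uncertain.

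Matricellular and adhesive glycoproteins, which link cells to the collagen network, took 2.15% ± 0.192 (SD, n = 3) of the BMSC-C reads and 6.64% ± 0.125 (SD, n = 3) of the BF-C reads. Of 24 tested, 16 were higher, 5 lower and 3 not called (median 1.57). Tnn (tenascin-W) stood at 4113, 4063 and 2764 against 127666, 131137 and 126750 normalized reads, a ratio of 35.2 (5.16 ± 0.15, adjusted p = 1.08e-08). Postn (periostin) stood at 12509, 10861 and 7774 against 112609, 109775 and 110375. Sparc, a collagen-binding protein, stood at 29099, 24104 and 22308 against 196908, 198151 and 193703 (2.97 ± 0.13, adjusted p = 1.24e-07). None of these 3 genes had overlapping groups, as was the case for 59.3% of all tested genes. Fn1 (fibronectin) was abundant in both, at 172859, 145477 and 152363 against 512405, 533492 and 499395 (1.72 ± 0.15); under quantile normalization the difference was 0.49 (adjusted p = 0.064). The CCN family of matrix-associated proteins split. Wisp2 stood at 49.7, 73.8 and 52.4 against 2403, 2351 and 2193, and Ctgf, the factor given to BMSC-CT, at 5580, 6497 and 4977 against 11414, 11155 and 11862 (1.02 ± 0.11). Cyr61 stood at 8616, 8154 and 9819 against 3447, 3467 and 3578, and Nov at 49468, 49890 and 56596 against 9581, 10015 and 10001, both lower in BF-C. Tnc (tenascin-C) was lower too, at 48690, 46252 and 43406 against 18142, 18649 and 18548 (-1.32 ± 0.10, adjusted p = 3.42e-06).

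Elastic fibre and basement membrane genes differed less. Of 16 elastic fibre and microfibril genes, 12 were higher, 3 lower and 1 not called (median 0.94). Fbn1 (fibrillin), the backbone of microfibrils, stood at 9571, 8432 and 8564 against 33608, 33614 and 32215 normalized reads, and Fbn2 and Mfap5 were also higher, with ratios of 4.12 and 11.1. Emilin2 fell, from 1636, 1927 and 2599 to 109, 106 and 105. Of 12 basement membrane genes, 9 were higher, 2 lower and 1 not called (median 0.59), with Nid1 at 14763, 13267 and 13426 against 26171, 26383 and 26220 and Lama5 lower at 1298, 1465 and 1873 against 348, 289 and 277.

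Tendon and fibrocartilage genes had a median of 2.14: of 19 tested, 14 were higher, 3 lower and 2 not called. Tnmd, a marker of mature tendon, stood at 4.69, 1.94 and 8.22 against 129, 92.1 and 131 normalized reads (4.45 ± 0.42, adjusted p = 2.08e-05). Eya1 stood at 51.6, 22.3 and 43.2 against 482, 424 and 381. Scx, the tendon transcription factor, averaged 126 against 276 (adjusted p = 0.0026). The lower genes were Tnc, Egr1 and Egr2, the last 2 being immediate early factors with means of 1495 against 440 and 223 against 44.4. Comp, a cartilage and tendon protein, had means of 17.9 and 11.8 and was not called. Hypertrophic cartilage and bone genes showed no common direction, with 4 of 15 higher, 4 lower and 7 not called. Spp1 (osteopontin), which bone cells and macrophages both make, stood at 8289, 7093 and 8418 against 1180, 1236 and 1330 (-2.66 ± 0.10), and Mmp13, the collagenase of hypertrophic cartilage, at 49670, 31135 and 40558 against 13734, 13205 and 14354. Alpl, the alkaline phosphatase of bone, was higher at 9.38, 14.6 and 2.06 against 144, 104 and 104. Runx2, the bone transcription factor, overlapped: 434, 342 and 336 against 426, 456 and 372 (adjusted p = 0.31).

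Contractile genes, which mark myofibroblasts, were higher in 17 of 24 cases, lower in 3 (5 with the length trend removed) and not called in 4 (median 0.94). Acta2, alpha smooth muscle actin, stood at 589, 584 and 356 normalized reads against 6942, 7942 and 7865, a ratio of 14.9 (3.93 ± 0.18, adjusted p = 1.57e-07). Mylk, the myosin light chain kinase, stood at 49.7, 40.8 and 27.8 against 606, 623 and 627. Tagln stood at 3635, 3674 and 2947 against 13374, 14366 and 14295, and Cnn1 (calponin) at 149, 119 and 126 against 579, 561 and 650. None of these 4 had overlapping groups, as was the case for 59.3% of all tested genes. Flna (filamin) overlapped, at 35198, 33592 and 39691 against 33543, 34299 and 33293 (adjusted p = 0.47, and called lower at -0.51 with the length trend removed), while Tagln2 (means of 16603 and 6948) and Zyx (11213 and 6901) were lower. Des (desmin), an intermediate filament of muscle, was lower at 117, 135 and 148 against 25.1, 29.6 and 20.9.

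Promoter sequences were searched for letters that transcription factors of fibroblasts are known to read. The RefSeq table (build GRCr8) gives 250 bases before to 50 after each start and matched 10487 of 15849 tested gene symbols. In all, 11 motifs were searched on both strands in all 53 lists: AP-1 TGANTCA, TEAD GGAATG, PU.1 AGGAAGT, SMAD GTCTAGA, RUNX TGTGGTT and SOX ACAAAG, and 5 added after the values were seen, which were the sterol element TCACNCCAC, the amino acid response element TGATGNAA, the CCAAT box CCAAT, the hypoxia element ACGTG and the E-box CACGTG, which contains the hypoxia element. The shares below were picked from that many and carry no test. The letters of TEAD were in 9 of 20 contractile promoters (45.0%), 8 of 16 matricellular ones and 6 of 14 of known YAP targets (42.9%), against 11.4% of all tested genes and 13.9% of all 27456 promoters of the table. TEAD factors with their partner YAP respond to tension. The matches lie in genes of either direction, as these windows show, with the TEAD letters in capitals (GGAATG, or CATTCC where the match is on the other strand):
Acta2 (higher, chr1:241172674-241172719, minus strand): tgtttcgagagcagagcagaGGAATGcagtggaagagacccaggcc
Mylk (higher, chr11:79498585-79498630, minus strand): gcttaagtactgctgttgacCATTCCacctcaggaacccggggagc
Ctgf (higher, chr1:22624755-22624800, minus strand): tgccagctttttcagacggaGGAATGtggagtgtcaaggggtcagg
Tnn (higher, chr13:74919918-74919963, minus strand): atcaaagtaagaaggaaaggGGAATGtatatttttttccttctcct
Cyr61 (lower, chr2:237225777-237225822, minus strand): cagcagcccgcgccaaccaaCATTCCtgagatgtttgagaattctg
Tagln2 (lower, chr13:87499256-87499301, plus strand): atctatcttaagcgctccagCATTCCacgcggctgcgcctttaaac
The SMAD letters were in 1.90% of the promoters of genes higher beyond 2-fold and in 2.57% of those lower beyond 2-fold, against 2.08% of all promoters. A match is a description of the sequence and not a binding site, and no match says only that these letters are not in this window.

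Ligands of the TGF-β family went in opposite directions. Tgfb1 stood at 6048, 6189 and 9383 normalized reads in BMSC-C and at 2336, 2449 and 2514 in BF-C (-1.54 ± 0.16, adjusted p = 3.24e-05), while Tgfb2 stood at 295, 254 and 144 against 1373, 1563 and 1416 (2.71 ± 0.23, adjusted p = 9.26e-06). Tgfb1 is also a product of macrophages. Over ligands, receptors and latent binders, 13 of 24 were higher, 5 lower and 6 not called (median 0.55). Ltbp2, a latent TGF-β binding protein of microfibrils, stood at 15625, 16651 and 17656 against 52499, 53065 and 52854. Thbs1, a thrombospondin known to activate latent TGF-β, stood at 13459, 11383 and 10414 against 34984, 36733 and 34742. Mstn (myostatin) was lower at 844, 771 and 558 against 193, 209 and 190. Among SMADs and feedback genes 7 of 19 were higher, 4 lower and 8 not called (median 0.18), and the signalling SMADs themselves were not called: Smad2 had means of 694 and 768 and Smad3 of 2487 and 2362 (called lower at -0.25 with the length trend removed, adjusted p = 0.020). Bambi, a decoy receptor, was higher at 83.5, 63.1 and 96.6 against 280, 217 and 279.

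BMP pathway genes were higher in 12 of 20 cases, lower in 5 and not called in 3 (median 0.62). The antagonist Chrdl1 stood at 78.8, 60.2 and 54.5 against 833, 838 and 864 normalized reads, and Bmp3, an inhibitory ligand, at 144, 103 and 80.2 against 753, 678 and 680. Grem1, a secreted BMP antagonist of high level in both groups, stood at 62281, 56884 and 43729 against 66527, 64763 and 67104 and was not called (adjusted p = 0.11, and 0.020 without BMSC-C replicate 1). The Id genes, direct BMP targets, split, with Id4 higher (means of 27.5 and 169) and Id1 (420 and 157) and Id2 (414 and 125) lower. Wnt genes were higher in 14 of 28 cases and lower in 4 (median 0.42). Sfrp1, a secreted Wnt inhibitor, stood at 810, 764 and 608 against 19467, 19203 and 19008, a ratio of 26.4 (4.73 ± 0.11, adjusted p = 3.19e-09), and Sfrp2 at 518, 462 and 577 against 2869, 2638 and 2726. Wnt6 was lower at 176, 291 and 416 against 0, 6.82 and 2.09, and the Wnt target Axin2 had means of 110 and 25.7.

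Growth factor genes were mixed. Among IGF genes 10 of 17 were higher and 4 lower (median 0.55): Igf1 stood at 133, 174 and 135 against 1466, 1395 and 1328 normalized reads, Pappa, a protease that frees IGF from its binding proteins, at 1602, 1508 and 1125 against 8994, 8665 and 8244, and the binding protein Igfbp3 was lower at 4884, 4079 and 4951 against 1402, 1590 and 1597. Of 25 PDGF, FGF and VEGF genes, 11 were higher, 5 lower and 9 not called (median 0.26); with the length trend removed, 8 were lower. Pdgfrl stood at 17.8, 25.3 and 12.3 against 725, 693 and 682. The PDGF receptor Pdgfra overlapped, at 18983, 16580 and 16205 against 18309, 17643 and 17545, and its difference of 0.05 (adjusted p = 0.69) turned to a lower call with the length trend removed (-0.24, adjusted p = 0.035). The 5 lower genes all belong to the VEGF branch, of which Vegfb, Vegfc and Figf were among the higher ones (Vegfb lost its call without any 1 of BF-C replicates 1, 2 and 3 or BMSC-C replicates 1 and 2, adjusted p between 0.068 and 0.12): Vegfa (means of 7773 and 3179), Pgf, Flt1 (326 and 35.8), Kdr and Flt4. Kdr lost its call without BF-C replicate 1 or 2 or BMSC-C replicate 2 or 3 (adjusted p between 0.067 and 0.15), in DESeq2 (0.064) and in limma-voom (0.062). Vipr2, a receptor for vasoactive intestinal peptide, overlapped at 84.4, 81.6 and 64.8 against 78.0, 91.0 and 68.0 (adjusted p = 0.89, with a sign that changed between settings), while 6 of the 9 tested genes of its receptor group were lower and 2 higher. YAP and TEAD targets were higher in 11 of 21 cases, lower in 3 (5 without BMSC-C replicate 1) and not called in 7 (median 0.35).

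Matrix proteases showed no common direction for the MMPs, of which 6 of 14 were higher, 4 lower and 4 not called (median 0.08). Mmp23 stood at 60.0, 70.9 and 61.7 against 2991, 2988 and 3036 normalized reads, a ratio of 46.8 (5.53 ± 0.11, adjusted p = 1.19e-09). Mmp12, the macrophage elastase, stood at 34863, 37098 and 42810 against 233, 248 and 270, a ratio of 153 the other way. Mmp3 (stromelysin) was lower at 155218, 99175 and 162019 against 78519, 76562 and 77124, and Mmp2 was not called (means of 116348 and 126592). ADAMTS proteases and their inhibitors were higher in 11 of 17 cases, lower in 1 (2 without BMSC-C replicate 1) and not called in 5 (median 1.70). Adamts5, an aggrecan-cleaving enzyme, stood at 1287, 1402 and 883 against 6306, 6505 and 6116, and the inhibitors Timp1 and Timp2 had ratios of 1.98 and 1.53.

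Microtubules are the target of docetaxel. Of 15 tubulins, 5 were higher, 2 lower and 8 not called (median 0.19). Tuba1a stood at 1463, 1450 and 1804 against 4231, 4620 and 4524 normalized reads, Tuba1b was lower at 3938, 3784 and 5096 against 2615, 2585 and 2375, and Tubb5 was not called (means of 8470 and 9154, and 0.27 with adjusted p = 0.012 under quantile normalization). Tubulin genes are alike in sequence, so reads may be split among them. Of 27 microtubule stabilizers and destabilizers, 11 were higher, 3 lower and 13 not called (median 0.21); with the length trend removed, 7 were higher and 5 lower, and 1 was lower without BF-C replicate 1, BF-C replicate 2 or BMSC-C replicate 2. Map1a stood at 2166, 1965 and 1963 against 6519, 6511 and 6484 and Dclk1 at 988, 824 and 720 against 2463, 2272 and 2341 (1.49, and 0.88 with the length trend removed). Map4 was not called (0.14, adjusted p = 0.23), but was called lower with the length trend removed (-0.30, adjusted p = 0.027) and higher under quantile normalization (0.26, 0.022).

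Mitosis genes were higher in BF-C in 20 of 21 cases and lower in none, with Aurka not called (median 2.24). Their levels were low in both groups, and together they took 0.00279% ± 0.000373 (SD, n = 3) of the BMSC-C reads and 0.0113% ± 0.000264 (SD, n = 3) of the BF-C reads. Top2a, the topoisomerase that untangles chromosomes, stood at 28.1, 19.4 and 16.4 against 190, 199 and 234 normalized reads (3.25 ± 0.24, adjusted p = 3.78e-06). Cenpf, a kinetochore protein, stood at 8.44, 11.7 and 2.06 against 113, 115 and 112, and Mki67, the Ki-67 antigen, at 38.5, 27.2 and 21.6 against 171, 133 and 171. DNA replication genes did not share the direction: 8 of 21 were higher (5 without BF-C replicate 2), 7 lower and 6 not called, with a median of -0.15 that was 0.01 with the length trend removed. Rrm2, a ribonucleotide reductase subunit, stood at 31.0, 25.3 and 15.4 against 103, 119 and 90.0, while Mcm7, of the replicative helicase, was lower at 823, 891 and 983 against 478, 440 and 473, and so was Pcna, the sliding clamp, at 786, 914 and 859 against 536, 511 and 507. Targets of p53 and growth arrest genes were higher in 10 of 19 cases and lower in 3 (median 0.44; 5 lower without BMSC-C replicate 1). Cdkn2b, a cyclin-dependent kinase inhibitor, stood at 421, 460 and 423 against 1617, 1456 and 1588, and Fas, a death receptor, at 182, 146 and 169 against 598, 632 and 589.

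Genes of cholesterol synthesis and uptake were higher in 22 of 23 cases, 15 of them beyond 2-fold, and only Pmvk was not called (median 1.68). Hmgcs1, which makes HMG-CoA, stood at 367, 366 and 414 normalized reads against 5614, 5990 and 6033, a ratio of 15.4 (3.94 ± 0.09, adjusted p = 2.89e-09). Dhcr7, the last enzyme of the pathway, stood at 86.3, 118 and 136 against 744, 880 and 854, and Idi1 at 171, 182 and 105 against 776, 895 and 775. Cyp51, which removes a methyl group from lanosterol, had means of 1092 and 5761. Insig1, which retains the sterol sensor in the endoplasmic reticulum, stood at 2055, 2077 and 2179 against 6325, 7032 and 6924. None of the 5 genes of this pathway given here with values had overlapping groups. Genes were named partly for the size of their change, and the groups of 59.3% of all tested genes did not overlap. The list took 0.102% ± 0.00586 (SD, n = 3) of the BMSC-C reads and 0.333% ± 0.0119 (SD, n = 3) of the BF-C reads.

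Both the mitosis and the cholesterol lists are rich in the CCAAT letters, which the factor NF-Y is known to read. They were in 15 of 18 mitosis promoters (83.3%) and 13 of 15 cholesterol promoters (86.7%), against 37.0% of all tested genes and 37.7% of all promoters. Some lists that were divided or mostly lower in BF-C were rich in them too, and others were not. The letters were in 15 of 15 unfolded protein response promoters, 11 of 15 of DNA replication and 6 of 8 of class II genes. They were in 6 of 24 hypoxia and glycolysis promoters (25.0%) and 10 of 31 of ribosomal proteins (32.3%), both lists mostly lower. Collagen modifying and crosslinking enzymes, mostly higher, had them in 5 of 22 promoters (22.7%). Whether the CCAAT share goes with the direction of a list was not tested. Several copies often lie in 1 window, as in these examples, with CCAAT or, on the other strand, ATTGG in capitals:
Cenpf (mitosis, chr13:103760993-103761037, minus strand): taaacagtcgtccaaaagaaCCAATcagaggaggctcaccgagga
Ccnb1 (mitosis, chr2:33655251-33655295, minus strand): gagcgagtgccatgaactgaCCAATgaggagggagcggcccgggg
Top2a (mitosis, chr10:84473126-84473170, minus strand): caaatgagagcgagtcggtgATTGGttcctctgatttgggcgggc
Hmgcs1 (cholesterol, chr2:53382151-53382195, plus strand): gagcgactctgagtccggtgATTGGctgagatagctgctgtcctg
Idi1 (cholesterol, chr17:66547566-66547610, minus strand): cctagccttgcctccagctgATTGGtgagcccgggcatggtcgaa
Msmo1 (cholesterol, chr16:29746984-29747028, plus strand): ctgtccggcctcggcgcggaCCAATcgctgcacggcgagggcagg
The sterol element letters were in none of the 15 cholesterol promoters, against 1.13% of all promoters. The CCAAT share over genes higher beyond 2-fold was 38.9% and over those lower beyond 2-fold 31.0%.

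**Figure D4:**
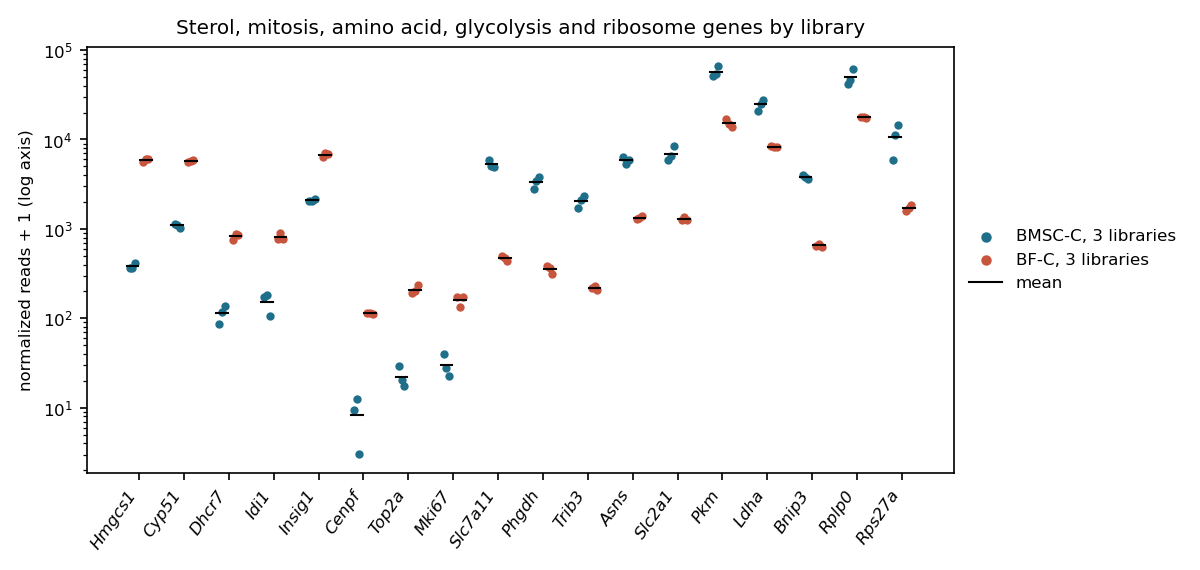
Normalized reads plus 1 (log axis) are shown for 18 genes of sterol synthesis, mitosis, amino acid response, glycolysis and ribosomes in the 3 BMSC-C and 3 BF-C libraries, with a line at each mean. The 8 genes from Hmgcs1 to Mki67 are higher in BF-C and the 10 from Slc7a11 to Rps27a lower, with no overlap between the groups in any of the 18. The genes were picked for display, and the groups of 59.3% of all tested genes did not overlap.

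Genes of the ATF4 and amino acid response, which cells switch on when amino acids run short or proteins misfold, were lower in BF-C in 18 of 20 cases, 15 beyond 2-fold (median -2.01). Slc7a11, the cystine importer, stood at 5857, 5049 and 4899 normalized reads against 492, 477 and 439 (-3.48 ± 0.10, adjusted p = 9.58e-09). Phgdh, which opens serine synthesis, stood at 2810, 3433 and 3783 against 380, 367 and 316, and Asns, the asparagine synthetase, at 6417, 5284 and 5861 against 1282, 1317 and 1392. Trib3 stood at 1698, 2132 and 2343 against 215, 227 and 205, and Atf4 itself at 15199, 12645 and 14072 against 6971, 7064 and 6823. The exceptions were Aldh1l2, a mitochondrial folate enzyme that was higher (means of 451 and 1664), and Cebpb, which was not called but was called lower without BMSC-C replicate 1 (-1.15, adjusted p = 2.81e-05), with the replicate block (-0.74, 0.015), in edgeR, DESeq2 and limma-voom and with scaling to total reads. The list took 0.532% ± 0.0443 (SD, n = 3) of the BMSC-C reads and 0.186% ± 0.00171 (SD, n = 3) of the BF-C reads. The amino acid response letters were in 2.01% of the promoters of all tested genes. Genes lower beyond 2-fold had them in 1.77% of promoters and genes higher beyond 2-fold in 1.52%. Among matrix metalloproteinases, which showed no common direction, 2 of 8 promoters had them. In the ATF4 and amino acid response list they were in 2 of 17 promoters, those of Chac1 and Trib3 (11.8%, against 3.82% of all promoters), with the letters in capitals:
Chac1 (lower, chr3:126795944-126795991, plus strand): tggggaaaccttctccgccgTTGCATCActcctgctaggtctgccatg
Trib3 (lower, chr3:161275527-161275574, minus strand): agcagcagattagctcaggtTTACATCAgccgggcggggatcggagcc
Unfolded protein response genes of the endoplasmic reticulum were divided, with 3 of 20 higher, 8 lower and 9 not called (median -0.13), and the chaperone Hspa5 stood at 21612, 16192 and 19085 against 16879, 16922 and 17082 (adjusted p = 0.31, and called lower at 0.049 without BMSC-C replicate 2). These counts moved with the settings: between 1 and 7 members were higher, the latter without BMSC-C replicate 1, 5 were lower without BF-C replicate 3 and none in the fit over 12 libraries.

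Hypoxia and glycolysis genes were lower in 24 of 26 cases and higher in none (median -1.54), and Hk1 (adjusted p = 0.046 with scaling to total reads) and Pfkfb4 were not called. Slc2a1, the main glucose transporter, stood at 5871, 6557 and 8484 normalized reads against 1247, 1366 and 1248, Pkm, pyruvate kinase, at 50771, 54116 and 65697 against 16749, 14772 and 13845, and Bnip3, a hypoxia-induced mitophagy receptor, at 4040, 3786 and 3570 against 651, 686 and 627. The lactate exporter Slc16a3 stood at 3585, 4892 and 5951 against 592, 607 and 652, a ratio of 7.79. Eno2 overlapped, at 834, 1339 and 147 against 355, 46.6 and 35.6, and lost its call in DESeq2 and limma-voom and without 4 of the 6 libraries in turn (adjusted p between 0.086 and 0.16). The list took 1.51% ± 0.130 (SD, n = 3) of the BMSC-C reads and 0.480% ± 0.00906 (SD, n = 3) of the BF-C reads. Cytosolic ribosomal proteins, whose genes are short, were lower in 38 of 40 cases (median -1.35, and -1.13 with 38 still lower once the length trend was removed; 14 were lower in the fit over 12 libraries). Rplp0 stood at 42017, 46699 and 60926 against 17833, 17854 and 17530, Rpsa at 29193, 29142 and 34946 against 11937, 12253 and 11676, and Rps27a at 5870, 11358 and 14675 against 1590, 1714 and 1859. Their share of reads was 2.71%, 3.27% and 3.54% in BMSC-C and 1.20%, 1.23% and 1.22% in BF-C. Ribosomal protein genes have many processed copies in the genome, so reads may be split: Rpl8 stood at 180, 2521 and 145 in BF-C and was called lower without BF-C replicate 2 (-0.90, adjusted p = 0.014), and Rpl7a stood at 1027, 807 and 2998 in BMSC-C. Of 11 mitochondrially encoded genes, 1 was higher (2 without BMSC-C replicate 1 and none without any other 1 of the 6 libraries), 3 lower (7 without BMSC-C replicate 3) and 7 not called. The lower 3 were Mt-co1, at 361810, 340423 and 330043 against 193143, 190323 and 200183 (-0.82, and -1.71 under quantile normalization), Mt-nd3 and Mt-nd4.

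Macrophage markers had the lowest median of the 53 lists, -8.65. Lyz2, lysozyme, stood at 63802, 63908 and 82081 normalized reads in BMSC-C against 52.0, 48.9 and 42.9 in BF-C, a ratio of 1459 (-10.47 ± 0.12, adjusted p = 5.82e-11). Adgre1, the F4/80 antigen, stood at 53365, 47458 and 61328 against 241, 200 and 191. Mrc1, the mannose receptor, stood at 7549, 7321 and 9476 and had no read in BF-C, at least 7948-fold lower against a floor of 3 reads over the group. Tyrobp, an adaptor of myeloid receptors, averaged 6424 against 1.62, and Ptprc (CD45), which marks all white blood cells, stood at 1556, 1452 and 1438 against 0.897, 3.41 and 5.23. Gpnmb, which other cells also express, stood at 94305, 92050 and 115041 against 5800, 5958 and 5849. Cd14 had the smallest difference of the 18, with means of 2032 and 340. The PU.1 letters AGGAAGT, read by the factor that sets macrophage identity, were in 3 of 13 promoters of the list (23.1%), in 14.8% of genes lower beyond 2-fold, in 5.52% of those higher beyond 2-fold and in 8.48% of all tested genes. The 3 promoters are shown with the letters, or ACTTCCT on the other strand, in capitals:
Lyz2 (lower, chr7:54798085-54798131, minus strand): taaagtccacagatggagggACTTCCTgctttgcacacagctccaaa
Mrc1 (lower, chr17:82157494-82157540, plus strand): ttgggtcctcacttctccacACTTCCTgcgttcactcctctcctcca
Ptprc (lower, chr13:52259838-52259884, minus strand): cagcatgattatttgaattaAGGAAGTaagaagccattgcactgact
The PU.1 letters were also in lists that were not mostly lower. They were in 3 of 13 promoters of ADAMTS proteases and their inhibitors and 3 of 15 cholesterol promoters, both lists mostly higher. Among the evenly divided chemokines, 5 of 16 promoters had them. None of 8 class II promoters, mostly lower, and none of 18 mitosis promoters, mostly higher, had them. Whether the PU.1 share goes with the direction of a list was not tested. These shares too were picked from all motifs and lists searched.

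The macrophage share of reads was 1.71% in BMSC-C and 0.0382% in BF-C beside the other immune lists; the part of macrophage RNA in them was not tested. Class II antigen presentation genes were lower in 10 of 11 cases (median -3.35): Cd74, the invariant chain, stood at 1132, 984 and 1537 against 5.38, 10.2 and 18.8, and only Cd80 was higher (means of 88.8 and 163). All 4 lymphocyte genes tested were lower, led by Cd4, which rat macrophages also carry, at 3192, 2661 and 3522 against 2.69, 3.41 and 2.09. Lysosomal genes were lower in 17 of 30 cases, higher in 6 and not called in 7 (median -0.64). Ctss, a cathepsin of antigen-presenting cells, stood at 2178, 2432 and 3165 against 7.18, 9.10 and 1.05, while Ctsb, found in most cells, stood at 69949, 65710 and 88627 against 25736, 25836 and 25702. Of 9 osteoclast genes tested, 5 were lower, 2 higher and 2 not called (median -1.12). Atp6v0d2 averaged 796 against 0.598, while Mmp9 was higher at 37958, 26686 and 51611 against 75504, 74447 and 77187. Of 6 neutrophil and mast cell genes tested, Lcn2 was higher (means of 73021 and 110939; adjusted p = 0.0043, and 0.24 under quantile normalization; 2 were higher without BMSC-C replicate 1) and 3 were lower. Of 6 endothelial markers tested, 2 were higher (1 without BF-C replicate 1, BF-C replicate 3 or BMSC-C replicate 2) and 3 lower (median -0.83), among them Tie1 at 488, 554 and 890 against 0.897, 4.55 and 0. Of 10 Schwann cell and neural markers tested, 4 were higher, 3 lower and 3 not called (median -0.05), and their share of reads was 0.00964% in BMSC-C and 0.0205% in BF-C. S100b, a calcium-binding protein, was among the higher ones with means of 466 and 2058, and Erbb3 among the lower ones at 265, 246 and 322 against 3.59, 4.55 and 1.05.

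Chemokines were divided evenly: of 23 tested, 10 were higher, 10 lower and 3 not called, and their summed share was 1.76% ± 0.228 (SD, n = 3) in BMSC-C and 1.84% ± 0.0299 (SD, n = 3) in BF-C (exact permutation p = 0.7). Ccl5, a T cell attractant, gave the largest rise of all named genes, at 12.2, 4.86 and 3.08 against 1582, 1621 and 1831 (7.94 ± 0.36, adjusted p = 1.63e-07). Ccl11 (eotaxin), which attracts eosinophils, stood at 9.38, 6.80 and 4.11 against 960, 885 and 836, and Cxcl12, the stromal factor that retains blood stem cells in marrow, at 4293, 3931 and 3887 against 31021, 31761 and 30950 (2.95 ± 0.08). Vcam1, the adhesion molecule of marrow stroma, stood at 283, 275 and 172 against 1922, 2033 and 1977. Ccl6 stood at 16155, 16207 and 20290 against 2.69, 4.55 and 4.19, and Pf4 at 12165, 11580 and 16367 against 7.18, 3.41 and 8.37; both are known products of myeloid cells or platelets. Neutrophil attractants were high in both groups: Cxcl6 stood at 79867, 51167 and 58521 against 109416, 105945 and 112056 (adjusted p = 0.054 under quantile normalization), and Cxcl1 at 77155, 54452 and 70232 against 47728, 45962 and 46683. The call for Cxcl1 (adjusted p = 0.014) was lost without any 1 of the BF-C libraries (0.054 to 0.067) and with the length trend removed (0.19).

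Cytokine and prostaglandin genes were lower in 13 of 23 cases and higher in 6 (median -0.71). Il1b stood at 15314, 14527 and 22982 normalized reads against 12.6, 10.2 and 16.7, and Il1a at 5388, 4167 and 5236 against 148, 181 and 148. Il11, a fibroblast cytokine linked to fibrosis, was also lower, at 15861, 11695 and 16608 against 4780, 4861 and 5195 (-1.56 ± 0.13, adjusted p = 9.55e-06), and so was Csf3 at 39598, 27272 and 40784 against 7893, 7528 and 7753. The prostaglandin synthase Ptgs2 stood at 31276, 19345 and 21535 against 17610, 16544 and 17366 (adjusted p = 0.042), a call lost without any 1 of the BF-C libraries (adjusted p between 0.10 and 0.13) and under quantile normalization (0.13). Csf1, the growth factor of macrophages, was higher, with means of 5528 and 12827, and Il1rl1, the IL-33 receptor, with 503 and 2738. Interferon response genes were higher in 8 of 23 cases (5 without BF-C replicate 2 or BMSC-C replicate 2), lower in 1 (2 without BMSC-C replicate 1 or BMSC-C replicate 2) and not called in 14 (median 0.28): Mx2 stood at 38.5, 20.4 and 31.9 against 256, 354 and 376 and Isg15 at 112, 68.0 and 152 against 283, 390 and 376. Complement genes were higher in 9 of 14 cases and lower in 1 (median 0.56; 2 were lower without BMSC-C replicate 1 and 3 without BMSC-C replicate 3). C3, the central component, stood at 42558, 36813 and 39501 against 123854, 122534 and 117040, and the receptor C5ar1, a myeloid gene, at 2078, 2004 and 2822 against 1.79, 1.14 and 3.14.

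Positional genes showed no common direction. For comparison, 49.6% of all tested genes were called, 24.4% higher and 25.2% lower. Hox genes, which keep a record of a cell's place along the body and limb, were higher in 6 of 26 cases, lower in 4 and not called in 16, with a median of -0.01 whose sign changed between settings. The 4 lower ones, Hoxd9, Hoxd10, Hoxd11 and Hoxd13, all belong to the HoxD cluster. Hoxd9 stood at 294, 307 and 286 normalized reads against 93.3, 79.6 and 87.9, Hoxd10 at 233, 174 and 213 against 40.4, 39.8 and 45.0 (-2.27 ± 0.18, adjusted p = 7.09e-06) and Hoxd11 at 82.5, 59.3 and 65.8 against 2.69, 5.69 and 7.32. HoxC genes were among the higher ones, with Hoxc6 at 137, 120 and 118 against 249, 233 and 249 and Hoxc10 at 285, 261 and 271 against 432, 516 and 488. Hoxb3 stood at 0, 0.971 and 0 against 10.8, 21.6 and 15.7. Of 45 other patterning factors, 19 were higher, 12 lower and 14 not called (median 0.24). The limb factors Tbx4 (means of 253 and 85.2) and Tbx5 (57.4 and 17.1) and the homeobox genes Barx1 (177 and 33.6) and Irx2 (125 and 17.1) were lower. Tbx18 (574 and 1907), Shox2 (387 and 1046), Tbx2 (17.7 and 120) and Prrx1 (3955 and 6890), a mesenchyme factor of the limb, were higher.

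**Figure D5:**
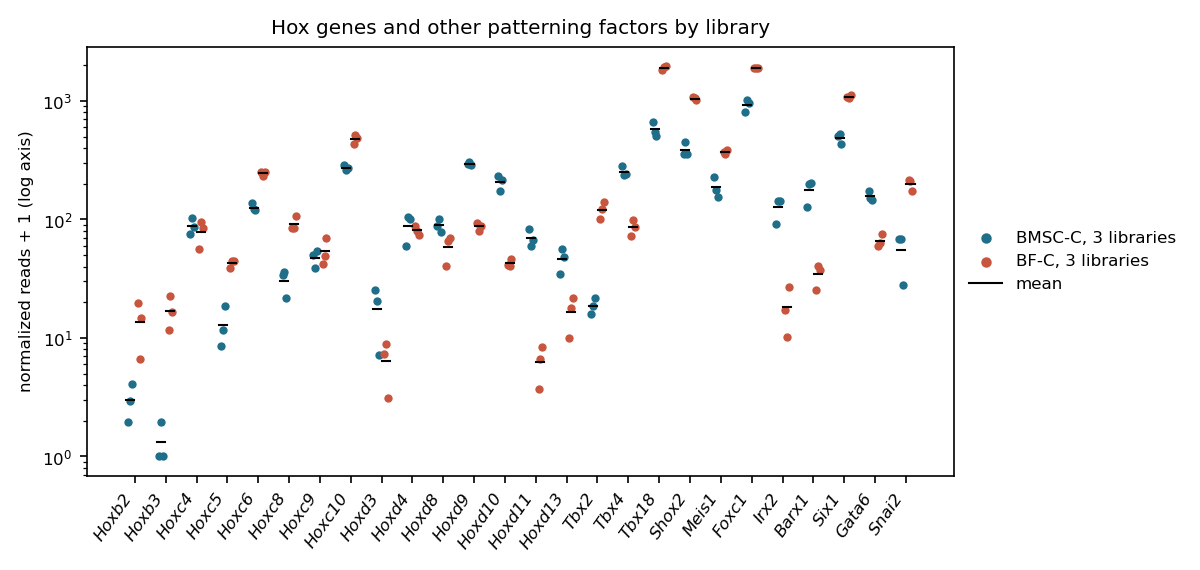
Normalized reads plus 1 (log axis) are shown for the Hox genes with a group mean of at least 10 and for other patterning factors called with at least 2-fold change and a group mean of at least 100, in the 3 BMSC-C and 3 BF-C libraries, with a line at each mean. Hoxd9, Hoxd10 and Hoxd11 lie lower in BF-C with no overlap, and Tbx18, at 1816 to 1954 against 509 to 661, lies higher.

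Among genes chosen for the size of their change, the 12 largest rises held several secreted or matrix-related genes. Dpt (dermatopontin), a protein that binds decorin and collagen, stood at 4.69, 5.83 and 14.4 normalized reads against 1468, 1442 and 1451, a ratio of 175. Itga11, the collagen-binding integrin of fibroblasts, stood at 156, 119 and 129 against 14004, 13979 and 14648 (6.72 ± 0.11, adjusted p = 3.13e-10). Clec11a, a growth factor for bone-forming stromal cells, stood at 0.938, 9.71 and 5.14 against 711, 687 and 739, and Htra3, a secreted protease, at 20.6, 19.4 and 30.8 against 1213, 1188 and 1109. The others were Ccl5, Ccl11, Col3a1, Cpz, Etnppl, Gxylt2, Adamtsl3 and C6, with ratios of means between 55.4 (C6) and 250 (Ccl5). The 12 largest falls were those of Mrc1, Ccl6, Tyrobp, RT1-CE16, Lrrc25, Pf4, Fcgr1a, Lyz2, Il1b, Rac2, Itgal and Folr2. Itgal, an integrin of leukocytes, stood at 2456, 2208 and 3748 against 0.897, 1.14 and 2.09, and Rac2, a GTPase of blood cells, at 5517, 4830 and 7186 against 8.07, 4.55 and 1.05. RT1-CE16, a class I gene of the rat major histocompatibility complex, stood at 1353, 2424 and 2977 and had no read in BF-C; genes of this family are alike and vary between strains, so its reads are uncertain.

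The other groups of the series were placed on 1 scale over all 12 libraries, with no test. Fibrillar collagens took 1.32%, 1.00% and 0.587% of the reads in BMSC-CT and 5.25%, 4.59% and 5.66% in BF-D. On this list the BMSC-CT libraries lay between those of BMSC-C and BF-C, and the BF-D libraries just below BF-C. Collagen modifying and crosslinking enzymes also lay between, at 0.845% of reads on average in BMSC-CT against 0.654% in BMSC-C and 1.37% in BF-C. For some other matrix lists BMSC-CT lay lower. Non-fibrillar collagens took 0.324%, 0.289% and 0.0916% of its reads against 0.831% on average in BMSC-C. Elastic fibre genes took 0.169%, 0.156% and 0.0901% against 0.359%. BMSC-CT replicate 3, the lowest in both, stood apart in ribosomal protein genes too, with 9.53% of reads against 3.55% and 4.27% in replicates 1 and 2. It therefore weighs on the BMSC-CT means given here. Col1a1 averaged 135774 normalized reads in BMSC-CT and 625931 in BF-D, and Lox 186 and 44262. Macrophage markers took 2.82%, 2.95% and 1.77% of the reads in BMSC-CT and 0.0455%, 0.0366% and 0.0460% in BF-D, so on these markers BF-D overlapped BF-C while the lowest BMSC-CT library fell within the range of BMSC-C. For some genes BMSC-CT lay below both: Il11 averaged 13.8 normalized reads there, Sfrp1 23.8 and Cxcl12 29.5. BF-C and BMSC-C also serve as controls of BF-D and BMSC-CT, so these values only say where each group stood.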

How the data were processed

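RNA-seq of rat cells was compared between 3 BF-C and 3 BMSC-C libraries. The submitters' processing notes name Bowtie 0.12.2 and the build mm8, which is a mouse build, while the gene IDs are rat Ensembl IDs; read assignment is not given in the sources used here. In the authors' deposited tables the signal of each library is a normalized read count: 100% of values were whole multiples (tolerance 0.01) of the smallest value above 0, so whole reads were recovered. Per the file headers the deposited tables also hold log2 fold changes and p-values of other comparisons, which were not used, and gene lengths in bases.

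The tables were joined on gene ID. Of 17571 shared IDs, 730 were made within each table and none of them lay at the same position, so they were left out and 16841 genes were joined. Genes in 1 table only were not compared: 871 in the BMSC table, with between 0.0772% and 0.0847% of the BMSC-C reads, and 1769 in the BF table, with between 0.0108% and 0.0109% of the BF-C reads. Median-of-ratios size factors were computed over the 6 libraries. Genes with a mean of at least 1 normalized read were tested with limma 3.58.1 (R 4.3.3, trended variance) on log2(normalized reads + 1), two-sided, with Benjamini-Hochberg adjustment over all 16090; limma's treat gave calls beyond 2-fold. Shares of reads were compared with exact permutation tests, which cannot go below p = 0.1 with 3 against 3. For a group with no read, a floor of 3 reads over the group was used.

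Members and lists were chosen with earlier results of these data known. Named genes were the 12 largest rises and 12 largest falls among called genes whose groups did not overlap and whose mean lay above the median, per list up to 4 called members with the largest change and a group mean of at least 100 and the 2 with the highest mean, and a fixed set that included Ctgf, Tgfb1, Sparc, Vipr2, Acan, Col2a1, Col1a1, Acta2, Sox9, Runx2, Lyz2, Il11, Grem1 and Spp1. Names of clones or loci were not counted as symbols, and some genes that the rule names are not reported here. Where a symbol had 2 IDs, the ID of the list is given. On simulated data for this comparison (15876 genes), the test called 40 of 67 genes given a 2-fold change, 54 of 66 given 4-fold and 64 of 66 given 16-fold, besides 14 of 15677 unchanged ones. Far fewer genes were changed there than were called in the data, and both groups had the same spread, so these rates may differ here. Alternatives were edgeR 4.0.16, DESeq2 1.42.0, limma-voom, other scalings, filters and pseudocounts, removal of the trend with gene length, a replicate block, a fit over all 12 libraries and leaving out each library.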

Additional observations from a re-analysis of the deposited data

How the results depend on the processing

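The count of called genes moved most in a fit over all 12 libraries, which shares both the spread and the size factors with the other groups. It called 3792 genes (1924 higher, 1868 lower), and 1041 beyond 2-fold (432 higher, 609 lower). Leaving out 1 library gave between 6415 and 8617 calls. edgeR called 3705 genes higher and 4236 lower, DESeq2 3705 and 3973, and limma-voom 3776 and 4195. The share of calls that were higher in BF-C lay between 45.0% (scaling to total reads) and 53.9% (quantile normalization), against 49.2%. With the replicate block 7766 genes were called (3852 higher, 3914 lower). Deviations of same-numbered libraries correlated at 0.00625, -0.0246 and 0.00739, so no pairing by replicate number was seen. Such correlations cannot exclude a shared animal or preparation, which the labels do not give. Of 291 called genes that the rule or the report names, 230 kept the call and direction in all 20 alternatives.

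Differences changed sign for 12 of the 322 tested genes that the rule or the report names, called or not, and the cause was not tested. With the length trend removed they were -0.0567 for Lamc1, -0.0727 for Igf2r, -0.24 for Pdgfra, -0.30 for Map4, -0.0765 for Vipr2 and -0.0528 for Runx2. Under quantile normalization they were -0.0718 for Bgn, -0.17 for Mmp2 and 0.0961 for Itgb1, which was 0.0057 in the fit over 12 libraries. Dgat2 was -0.0056 with TMM scaling, -0.0065 with edgeR and with limma-voom and -0.033 with scaling to total reads, where Vipr2 was -0.0109 and Pmvk -0.0114; Pmvk was -0.0018 with edgeR. Leaving out 1 library at a time gave -0.0012 to 0.1165 for Pdgfra, -0.1237 to 0.0747 for Itgb1, -0.0093 to 0.0324 for Dgat2, -0.0882 to 0.1447 for Vipr2, -0.1199 to 0.1903 for Pmvk and -0.8991 to 1.1508 for Rpl8. Some larger differences moved by over 1.5-fold with their direction kept: without BMSC-C replicate 3 Alpl was 3.19 and Cenpf 3.38, without BMSC-C replicate 1 Clec11a 6.45, without BF-C replicate 2 Tie1 -8.84, Col13a1 -3.96 and Wnt6 -7.33 (-5.81 without BF-C replicate 1), without BF-C replicate 3 Rac2 -9.66 and Ctss -8.13, and under quantile normalization Col1a1 4.28. Differences in shares of reads then ranged from -0.150 to 0.0567 percentage points for small leucine-rich proteoglycans, -0.00914 to 0.0563 for BMP genes, -0.0363 to 0.191 for chemokines and -0.0250 to 0.0586 for unfolded protein response genes. List medians also changed sign: Hox genes lay between -0.18 and 0.18, DNA replication genes reached 0.01 with the length trend removed, chemokines -0.06 without BMSC-C replicate 2, and Schwann cell and neural markers 0.41 and endothelial markers 0.30 with a mean of at least 10, a filter that leaves fewer members. In simulated data 40 of 67 genes changed 2-fold were called, so changes of that size can be missed. The simulation left 15677 of 15876 genes unchanged and gave both groups the same spread. It therefore does not measure how many such changes were missed here.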

Other observations

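Both chains of type I collagen, which assemble in a fixed ratio, can be set side by side per gene length. Col1a1 averaged 4838 normalized reads per kb in BMSC-C and 143508 in BF-C, and Col1a2 averaged 1593 and 12157. Col1a2 varied more in proportion between libraries than Col1a1, and how reads were assigned is not given. The balance of the chains therefore cannot be read from these values.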
